A study of Mus musculus with 6 samples.

Results

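The genes described here are the 10 core genes of the circadian clock, namely *Arntl* (which encodes BMAL1), *Clock*, *Per1*, *Per2*, *Per3*, *Cry1*, *Cry2*, *Nr1d1* (REV-ERBα), *Nr1d2* (REV-ERBβ) and *Dbp*. They were listed by symbol, found by their Ensembl identifiers among the 46517 genes of the count files, and all 10 passed the filter on low counts. RNA-seq was performed on inguinal white adipose tissue (IngWAT) of 3 floxed and 3 H3atKO samples, each a pool of RNA from 2 or 3 mice. Floxed mice carried loxP-flanked *Hdac3* on a BL6 background, and H3atKO mice came from crossing them with Adipoq-cre mice, whose Cre recombinase is driven by the adiponectin promoter and therefore acts in adipocytes and not in the other cells of the depot. All mice were C57Bl6, 5 to 9 months old, fed chow and kept in standard housing. The sources used here do not say whether floxed mice carried Cre, which mice went into which pool, or at what hour the tissue was collected.

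The clock is a loop of transcription and repression that runs in most cells over a day. CLOCK and BMAL1, or NPAS2 in the place of CLOCK, bind E-box elements and activate *Per*, *Cry*, *Nr1d1*, *Nr1d2* and *Dbp*, and PER and CRY proteins return to repress them. REV-ERBα and REV-ERBβ repress *Arntl* through a different DNA element, with the NCoR corepressor and its deacetylase HDAC3, whereas ROR proteins activate through the same element. DBP, TEF and HLF activate genes through D-box elements, where NFIL3 represses.

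The letters of these elements were searched in RefSeq promoter windows (GRCm38.p6, 250 bases before to 50 bases after each start) of 9 of the 10 genes. Those of *Arntl*, *Cry1*, *Per1* and *Per3* held a match, and those of *Clock*, *Cry2*, *Nr1d1*, *Nr1d2* and *Dbp* did not hold these letters. The matches are shown so that the elements named above can be read in the genes described. The E-box was searched as CACGTG, the D-box as TTANGTAA and the core of the Rev-erb and ROR element as TAGGTCA, on both strands. Capitals mark the match, and each line is written along the strand of the gene.
Arntl, Rev-erb and ROR element: aaggcagaaagTAGGTCAgggacggaggtg
Cry1, E-box: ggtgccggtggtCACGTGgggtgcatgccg
Per1, E-box: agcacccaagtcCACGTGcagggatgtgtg
Per3, D-box: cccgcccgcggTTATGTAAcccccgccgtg
Per3, second D-box: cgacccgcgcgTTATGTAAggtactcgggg
The stretch of *Arntl* is chr7:113207530-113207559 on the plus strand, and its match begins 30 bases after one of the annotated starts. That of *Cry1* is chr10:85185097-85185126 on the minus strand, with the match 60 bases before the start, and that of *Per1* is chr11:69098771-69098800 on the plus strand, with the match 166 bases before a start. Those of *Per3* are chr4:151044805-151044834 and chr4:151044852-151044881 on the minus strand, with matches 158 and 205 bases before the start. Among 27025 genes with a window, 8.09% hold the E-box letters, 2.97% the Rev-erb and ROR core and 2.72% the D-box letters. A match is a description of these letters and not a measured binding site.

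The samples held 23865507 to 35200685 counts on genes. Expression is given in cpm (counts scaled to a common library total, with TMM factors), in which 3 counts were at most 0.190 cpm. *Hdac3* itself was at 68.8, 80.2 and 65.8 cpm in floxed and at 27.4, 21.05 and 12.9 cpm in H3atKO replicates 1 to 3. The 7 adipocyte markers (*Adipoq*, *Plin1*, *Fabp4*, *Lep*, *Cidec*, *Retn* and *Lipe*) summed to between 13480 and 29150 cpm, with overlapping genotypes. This sum was mostly *Fabp4*. Of the 7 markers, 6 had a negative log2 fold change, against 7855 of all 14967 genes tested, and the median was -1.49. By limma 0 were called, with 2 lower at an unadjusted p under 0.05, and edgeR's quasi-likelihood test called 1 lower. Of all genes, limma called 7.07% lower and edgeR 18.4%. *Lipe*, the hormone-sensitive lipase, was at 1489, 628 and 135 cpm in floxed and at 67.4, 115 and 27.5 cpm in H3atKO replicates 1 to 3. Its genotypes did not overlap (limma adjusted p = 0.0524), which was so for 51.8% of all genes. The part of these markers in the clock gene values was not tested. In bulk tissue, fewer cells of a type and less RNA per cell cannot be told apart. One property of the libraries touches each result on the clock. Across 14922 genes, which are not independent replicates, the log2 fold change followed the GC content of the transcript with a Spearman's rho of -0.706. For each library, rho was taken between GC content and each gene's log2 cpm minus its mean over all samples. It was between 0.0969 and 0.800 in floxed and between -0.711 and -0.433 in H3atKO samples. These deviations add to 0 over the samples, so that opposite signs are partly built in. The genotypes did not overlap in this property, and its part in a difference cannot be told apart from that of genotype. A GC-corrected value, left after taking a smooth curve over GC content out of every library, is therefore given beside the fold changes. For the 7 adipocyte markers the GC-corrected median was -0.79, with 2 positive and 5 negative values and 0 called by limma.

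Of the 10 clock genes, *Clock* rose and *Cry2* fell in H3atKO samples, *Arntl* showed no detectable difference, and the remaining 7 did not reach an adjusted p under 0.05 with limma voom. Of all 14967 genes tested, 16.5% were called, 9.42% higher and 7.07% lower, so that 1 of 10 in each direction was near the background. The median log2 fold change was -0.40 over the 10 genes and -0.09 over all genes. The expression of the groups did not overlap for 4 of the 10 (*Clock*, *Per1*, *Cry1* and *Cry2*), against 51.8% of all genes, of which 23.2% were higher and 28.6% lower in H3atKO samples. edgeR's quasi-likelihood test called 1 higher and 3 lower (*Per1*, *Cry2* and *Nr1d1*), where it called 31.2% of all genes, 12.8% higher and 18.4% lower. With 3 samples against 3, a two-sided exact permutation test of a single gene cannot go below p = 0.1. After the GC correction, 1 clock gene (*Cry1*) was called higher and 0 lower with limma, where 1 (*Cry2*) was lower at an unadjusted p under 0.05 and where 8.56% of all genes were called, 5.41% higher and 3.15% lower.

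**Figure D1:**
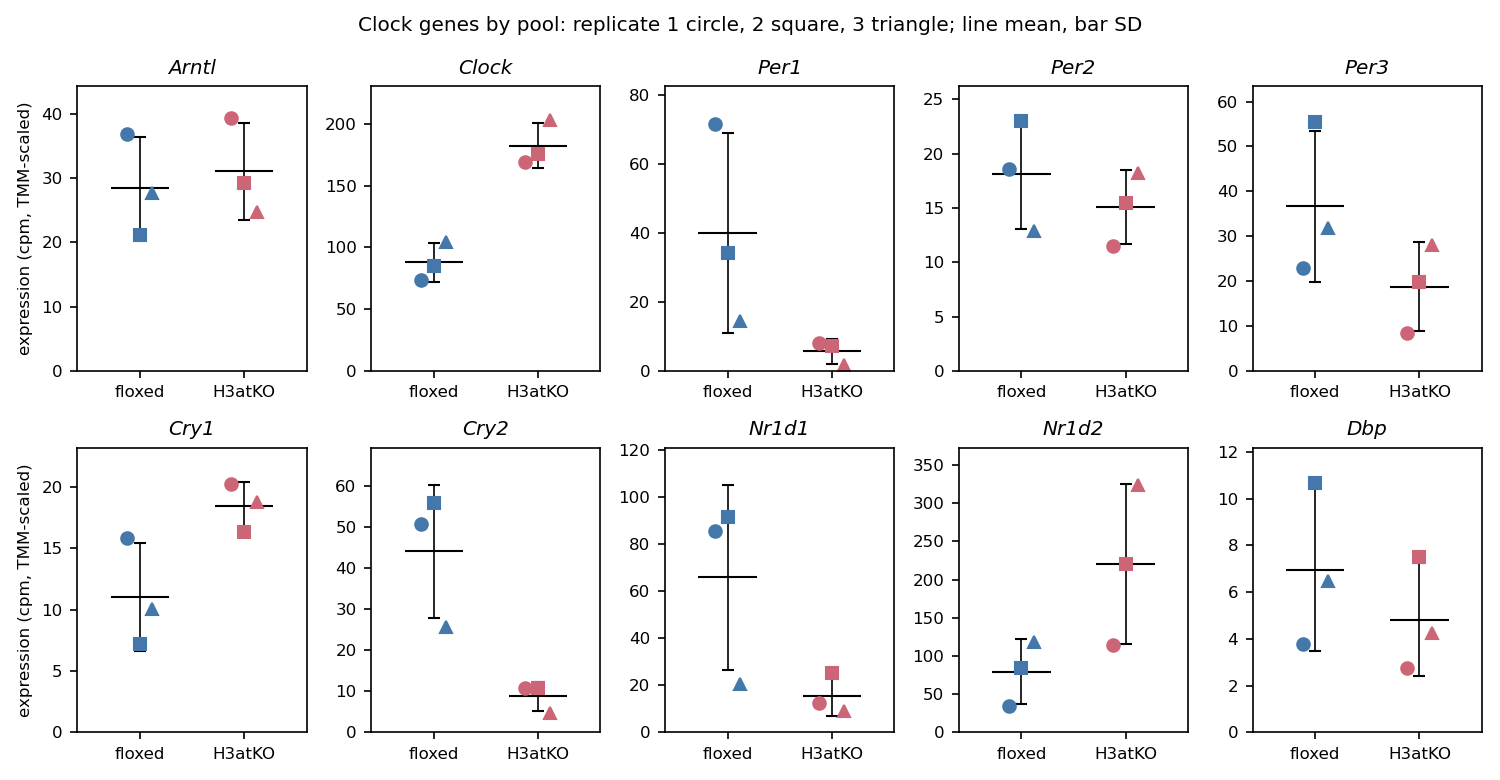
Expression of the 10 clock genes in each pool, in cpm of the TMM-scaled library on a linear axis from 0, with floxed samples in blue and H3atKO samples in red, a marker shape for each replicate number, a line at the mean and a bar for the SD of 3 pools. The H3atKO pools sit above the floxed pools for *Clock* and *Cry1* and below them for *Per1* and *Cry2*, and the genotypes overlap for the other 6 genes.

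The labels give both genotypes the replicate numbers 1 to 3, and pools with the same number deviated together from their genotype's mean (correlation across genes of 0.510, 0.389 and 0.264). For pools of unlike number the correlation was between -0.295 and -0.0516. The deviations add to 0 over the 3 pools of a genotype, so that these opposite signs are partly built in. With the replicate number as a block, limma called 3 clock genes higher (*Clock*, *Cry1* and *Nr1d2*) and 4 lower (*Per1*, *Per3*, *Cry2* and *Nr1d1*). The block also called more of all genes, 53.5%, with 24.8% higher and 28.7% lower. Blocking and correcting for GC content at once, 3 were called higher (*Cry1*, *Nr1d2* and *Dbp*) and 1 lower (*Cry2*), against 22.8% of all genes, 12.9% higher and 9.84% lower. *Cry1* higher and *Cry2* lower were thus the calls common to both blocked fits, with *Nr1d2* higher. On GC-corrected values the correlation of the third pair was 0.00141, against 0.394 and 0.380 for the first and second. Pools of unlike number were then between -0.374 and 0.136, so that the third pair was within their range.

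Of the activators, *Arntl* (ENSMUSG00000055116; chromosome 7, 113207465 to 113314126) encodes the partner that CLOCK needs to bind DNA, and it is the gene that Rev-erb proteins are best known to repress. It was at 36.8, 21.1 and 27.6 cpm in floxed replicates 1 to 3 and at 39.3, 29.2 and 24.6 cpm in H3atKO replicates 1 to 3. The genotypes overlapped throughout, with replicate 1 the highest pool of each. The log2 fold change was 0.15 ± 0.32 (SE, limma adjusted p = 0.722), and it was 0.067 ± 0.30 (SE, limma adjusted p = 0.898) after the GC correction. *Arntl* lay next to the median of 0.11 of its decile of GC content. Leaving out 1 pool at a time gave log2 fold changes between -0.062 and 0.35, none with a limma adjusted p below 0.457.

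*Clock* (ENSMUSG00000029238; chromosome 5, 76209868 to 76304792) encodes the partner of BMAL1 in the activator. It was at 73.8, 85.3 and 105 cpm in floxed and at 169, 175 and 203 cpm in H3atKO replicates 1 to 3, with no overlap and small spread within each genotype. It rose 2.09-fold, a log2 fold change of 1.06 ± 0.23 (SE, limma adjusted p = 0.0320). *Clock* has the lowest GC content of the 10 genes (40.9%), and the median log2 fold change of its decile of GC content was 1.13, with quartiles of 0.67 and 1.53. After the GC correction the value was 0.052 ± 0.17 (SE, limma adjusted p = 0.858). The call was also lost when library sizes replaced the TMM scaling (0.21, adjusted p = 0.554 from limma) and without any one pool other than floxed replicate 3 (adjusted p from 0.0743 to 0.132).

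Among the repressors of the main loop, the values of the 2 cryptochromes went in opposite directions, before and after the GC correction. *Cry1* (ENSMUSG00000020038; chromosome 10, 85131700 to 85185064) encodes the stronger of the 2 repressors of CLOCK and BMAL1. It was at 15.9, 7.18 and 10.1 cpm in floxed and at 20.2, 16.3 and 18.8 cpm in H3atKO replicates 1 to 3. The lowest H3atKO pool was just above the highest floxed pool. The log2 fold change was 0.81 ± 0.37 (SE, limma adjusted p = 0.129), with an adjusted p of 0.0397 with the replicate block. With library sizes alone it was -0.058 (adjusted p = 0.922 from limma). With the GC correction *Cry1* was higher by 1.37 ± 0.31 (SE, limma adjusted p = 0.0451). In GC-corrected log2 cpm the floxed pools were at 3.53, 2.53 and 3.28 and the H3atKO pools at 4.49, 4.28 and 4.74, so that the gap between the genotypes was wider on this scale.

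*Cry2* (ENSMUSG00000068742; chromosome 2, 92403646 to 92434043) encodes the other cryptochrome. It was at 50.7, 55.9 and 25.6 cpm in floxed and at 10.9, 10.8 and 4.74 cpm in H3atKO replicates 1 to 3. Replicate 3 was the lowest pool of each genotype, and the groups did not overlap. It fell 4.95-fold, a log2 fold change of -2.31 ± 0.49 (SE, limma adjusted p = 0.0307 and 0.0216 from edgeR's quasi-likelihood test). The median of its decile of GC content was -1.58, and the lower quartile was -2.21, so *Cry2* lay lower than 3 in 4 of the genes with a GC content like its own (55.6%). Corrected for GC content it was -0.88 ± 0.30 (SE, limma adjusted p = 0.104), and with the replicate block and the correction together -0.85 (adjusted p = 0.0451). Without any one pool other than floxed replicate 3, the uncorrected value had a limma adjusted p of 0.0620 to 0.115. A long noncoding transcript on the other strand shares 295 bases, or 4.67%, of its exons.

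**Figure D2:**
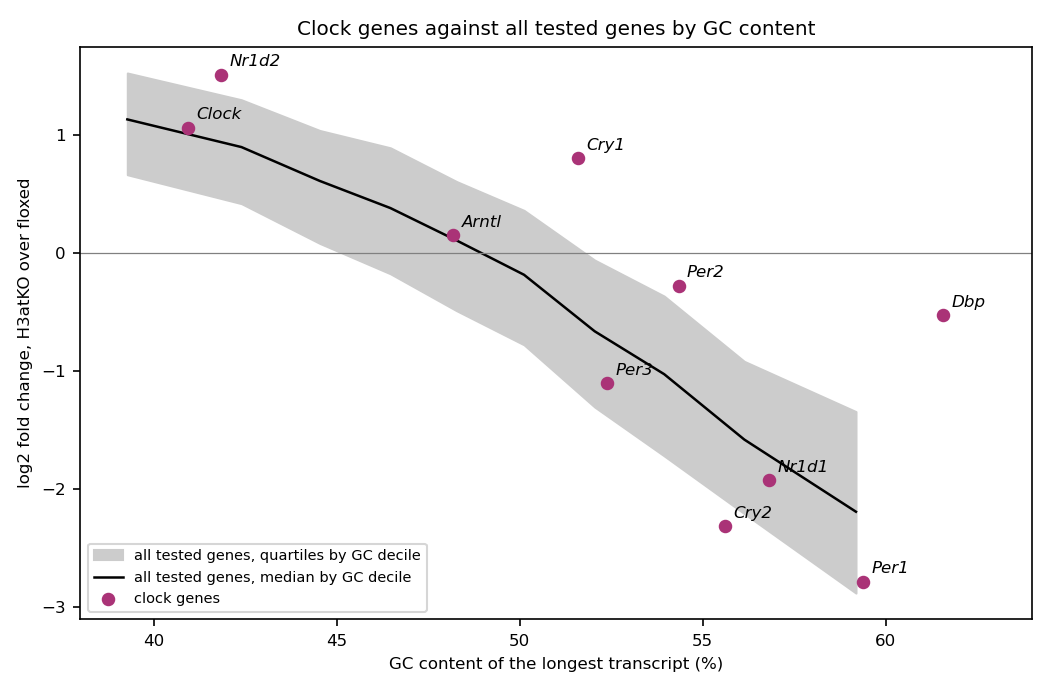
Log2 fold change of H3atKO over floxed against the GC content of the longest transcript in %, with the 10 clock genes as points and all tested genes as a line (median by GC decile) and a grey band (quartiles). *Clock* and *Arntl* lie on the line, *Nr1d2*, *Cry1* and *Per2* lie above the band, *Cry2* lies just below it, and *Dbp*, beyond the end of the line, lies higher than the band's last value.

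The 3 *Per* genes encode the partners of the cryptochromes, and *Per1* and *Per2* also respond to hormones and other acute signals. *Per1* (ENSMUSG00000020893; chromosome 11, 69095217 to 69109960) was at 71.6, 34.2 and 14.4 cpm in floxed and at 8.23, 7.13 and 1.64 cpm in H3atKO replicates 1 to 3. Each genotype spanned more than a 4-fold range, and the groups still did not overlap. The log2 fold change was -2.78 ± 0.86 (SE, limma adjusted p = 0.0596), which was called by edgeR's quasi-likelihood test (adjusted p = 0.0331) and with the replicate block (adjusted p = 0.00288). At a GC content of 59.4%, its decile had a median of -2.19, and the GC-corrected value was -0.57 ± 0.32 (SE, limma adjusted p = 0.264).

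*Per2* (ENSMUSG00000055866; chromosome 1, 91415982 to 91459324) was at 18.6, 23.0 and 12.8 cpm in floxed and at 11.5, 15.5 and 18.3 cpm in H3atKO replicates 1 to 3. The genotypes overlapped, with a log2 fold change of -0.28 ± 0.35 (SE, limma adjusted p = 0.554) that became 0.84 after the GC correction (adjusted p = 0.169). *Per3* (ENSMUSG00000028957; chromosome 4, 151003652 to 151044665) was at 22.9, 55.3 and 31.8 cpm in floxed and at 8.35, 19.8 and 28.1 cpm in H3atKO replicates 1 to 3. Replicate 1 was its lowest pool in both genotypes, and the groups overlapped. The difference was -1.10 ± 0.52 (SE, limma adjusted p = 0.144, and 0.0364 with the replicate block), or -0.35 after the GC correction (adjusted p = 0.716).

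*Nr1d1* and *Nr1d2* encode the nuclear receptors that recruit HDAC3 through NCoR, and the values of the pair went in opposite directions. *Nr1d1* (ENSMUSG00000020889; chromosome 11, 98767932 to 98775333) was at 85.4, 91.5 and 20.7 cpm in floxed and at 12.5, 25.4 and 9.10 cpm in H3atKO replicates 1 to 3. One H3atKO pool was above the lowest floxed pool. The log2 fold change was -1.92 ± 0.72 (SE, limma adjusted p = 0.0869, 0.0417 from edgeR's quasi-likelihood test and 0.00508 with the replicate block). Corrected for GC content it was -0.21 ± 0.46 (SE, limma adjusted p = 0.780). *Nr1d1* shares 263 bases, or 8.55%, of its exons with *Thra* on the other strand, and the strand setting of the counting is not given in the sources used here.

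*Nr1d2* (ENSMUSG00000021775; chromosome 14, 18204054 to 18239127) was at 35.1, 84.8 and 119 cpm in floxed and at 115, 221 and 324 cpm in H3atKO replicates 1 to 3. Each H3atKO pool was above the floxed pool with the same number, and replicate 1 was the lowest of each genotype. The log2 fold change was 1.51 ± 0.54 (SE, limma adjusted p = 0.0765). With the replicate block it was 1.51 again with a standard error of 0.17 (adjusted p = 0.00298). The GC-corrected value was 0.58 ± 0.38 (SE, limma adjusted p = 0.327), and with the block and the correction together 0.58 (adjusted p = 0.0437).

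*Dbp* (ENSMUSG00000059824; chromosome 7, 45705088 to 45710203) encodes an activator of D-box genes and is a direct output of CLOCK and BMAL1. It was the least expressed of the 10 per length in floxed samples, at 3.77, 10.7 and 6.46 cpm in floxed and at 2.76, 7.49 and 4.23 cpm in H3atKO replicates 1 to 3. The order of the pools by number was the same in each genotype. The log2 fold change was -0.52 ± 0.56 (SE, limma adjusted p = 0.484), and it turned to 1.92 after the GC correction (SE 0.97, limma adjusted p = 0.225), with an adjusted p of 0.0178 with the block and the correction together. *Dbp* has the highest GC content of the 10 (61.6%), where the correction is largest, and its GC-corrected floxed pools spread from -0.51 to 2.67 log2 cpm. It shares 539 bases, or 18.0%, of its exons with *Sphk2* on the other strand.

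**Figure D3:**
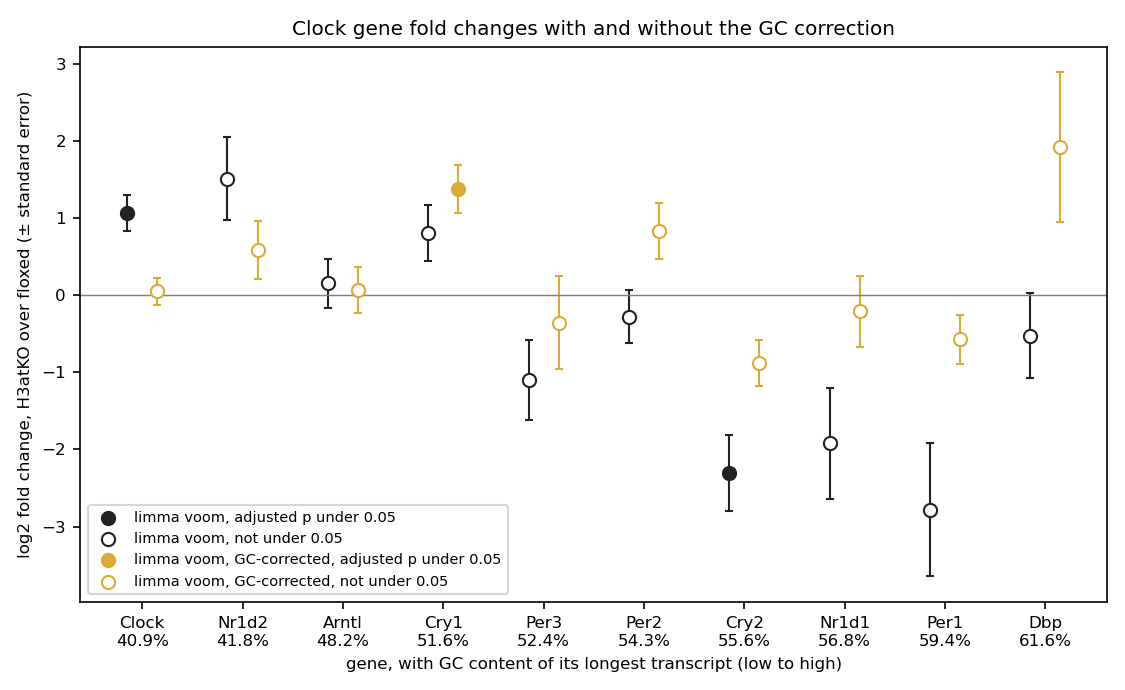
Log2 fold change of H3atKO over floxed for the 10 clock genes, ordered by GC content, from limma voom without (black) and with the GC correction (yellow). Bars are standard errors and filled points have an adjusted p under 0.05: *Clock* and *Cry2* without the correction and *Cry1* with it.

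Over the 10 genes, Spearman's rho between GC content and log2 fold change was -0.818 before and -0.115 after the correction, as a description of 10 genes measured in the same 6 libraries. GC-corrected groups did not overlap for 3 of the 10 (*Per1*, *Cry1* and *Cry2*), against 39.0% of all genes, 19.7% higher and 19.3% lower. The levels per kb that follow are without the GC correction. Per kb of exon, the highest expressed clock gene was *Nr1d1* in floxed samples (21.4 ± 12.7 cpm per kb, SD, n = 3) and *Nr1d2* in H3atKO samples (40.6 ± 19.3, SD, n = 3). The second highest was *Nr1d2* in floxed (14.7 ± 7.79, SD, n = 3) and *Clock* in H3atKO samples (13.3 ± 1.32, SD, n = 3). *Nr1d1* and *Nr1d2* in floxed samples were within their spread of each other, as were *Per1* (7.12 ± 5.16), *Cry2* (6.98 ± 2.57) and *Clock* (6.40 ± 1.13). The other 5 were between 2.33 and 3.82 cpm per kb in floxed samples. In H3atKO samples *Per1* was the lowest (1.01 ± 0.627), followed by *Cry2* (1.39 ± 0.554) and *Dbp* (1.61 ± 0.809), and these 3 overlapped. After the GC correction, *Nr1d2* was above *Nr1d1* per length in each floxed pool too. The corrected log2 ratio of *Nr1d1* to *Nr1d2* was -0.36, -0.53 and -1.83 in floxed replicates 1 to 3.

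Ratios of 2 members within a pool do not depend on library scaling, and they are given as a description with no test. The log2 ratio of *Cry1* to *Cry2* per length was -0.76, -2.04 and -0.43 in floxed replicates 1 to 3, while the H3atKO pools had 1.82, 1.52 and 2.91. Before the GC correction, *Cry2* was thus the more abundant cryptochrome in each floxed pool and *Cry1* in each H3atKO pool. After it, *Cry1* was slightly the higher in floxed replicate 1 as well (0.11). The difference between the genotype means was 3.16 on the log2 scale, and 2.28 after the GC correction, where floxed pools were between -1.60 and 0.11 and H3atKO pools between 1.17 and 2.19. The log2 ratio of *Nr1d1* to *Nr1d2* was 2.10, 0.92 and -1.71 in floxed and -2.38, -2.31 and -4.34 in H3atKO pools. This difference of -3.45 became -0.77 after the GC correction, where the genotypes overlapped. The ratio of *Per1* to *Per2* differed by -2.59, and by -1.47 after the correction with H3atKO pools at -0.11, -0.63 and -2.57 and the lowest floxed pool at 0.04. *Arntl* to *Nr1d1*, a gene and its repressor, differed by 2.07 before and 0.24 after the correction. *Arntl* to *Dbp* differed by 0.66 before and -1.89 after it, with overlap of the genotypes both times.

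**Figure D4:**
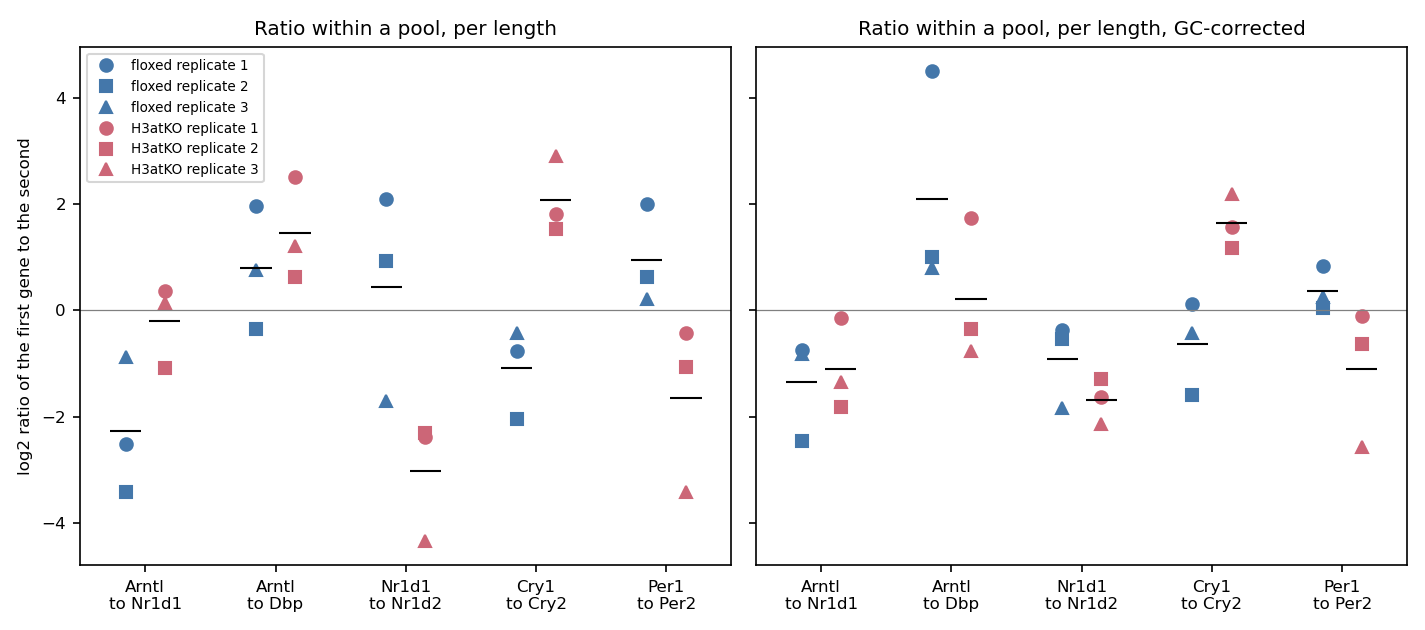
Log2 ratio per exon length of pairs of clock genes within each pool, without (left) and with the GC correction (right), with floxed in blue, H3atKO in red, a marker shape for each replicate number and a line at the mean. *Cry1* to *Cry2* and *Per1* to *Per2* separate the genotypes in both panels, and *Nr1d1* to *Nr1d2* in the left panel only.

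The spread of several clock genes within a genotype followed the replicate number. This was noticed after the values had been seen and is given with no test. In log2 cpm, replicate 1 was the highest pool of both genotypes for 3 of the 10 genes (*Arntl*, *Per1* and *Cry1*), against 21.6% of all tested genes, and the lowest of both for 4 (*Clock*, *Per3*, *Nr1d2* and *Dbp*), against 18.4%. On the GC-corrected scale it was the highest for 1 (*Arntl*), against 12.4%, and the lowest for 4 (*Per2*, *Per3*, *Nr1d2* and *Dbp*), against 14.1%. *Arntl* in replicate 1 was above the mean of replicates 2 and 3 by 0.61 in floxed and 0.55 in H3atKO samples on the log2 scale, and by 0.72 and 0.56 after the correction. For *Nr1d2* the corrected values were -0.99 and -0.96, for *Per3* -1.24 and -1.77, and for *Dbp* -2.90 and -1.72. Of the 10 further transcription factors tested, replicate 1 was the highest pool of both genotypes for 2 and the lowest for 5, or for 1 and 3 on the corrected scale. *Npas2*, the paralogue of *Clock*, was at 17.5, 8.46 and 6.07 cpm in floxed and at 14.8, 2.70 and 1.96 cpm in H3atKO replicates 1 to 3, with replicate 1 the highest as for *Arntl*. *Arntl2*, the paralogue of *Arntl*, went the other way before the correction, with replicate 1 minus the mean of the others at -0.99 in floxed and -0.14 in H3atKO samples, and at -0.54 and 0.072 after it. *Tef*, the relative of *Dbp*, was at 63.6, 103 and 84.0 cpm in floxed and at 49.95, 83.5 and 58.4 cpm in H3atKO replicates 1 to 3, with replicate 1 the lowest as for *Dbp*. Lymphocyte markers (12 genes such as *Cd3e* and *Cd79a*) summed to 178, 10.5 and 12.1 cpm in floxed and to 718, 21.3 and 1050 cpm in H3atKO replicates 1 to 3, so that replicate 1 was the richest floxed pool and replicate 3 the richest H3atKO pool. Their part in the pattern was not tested.

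**Figure D5:**
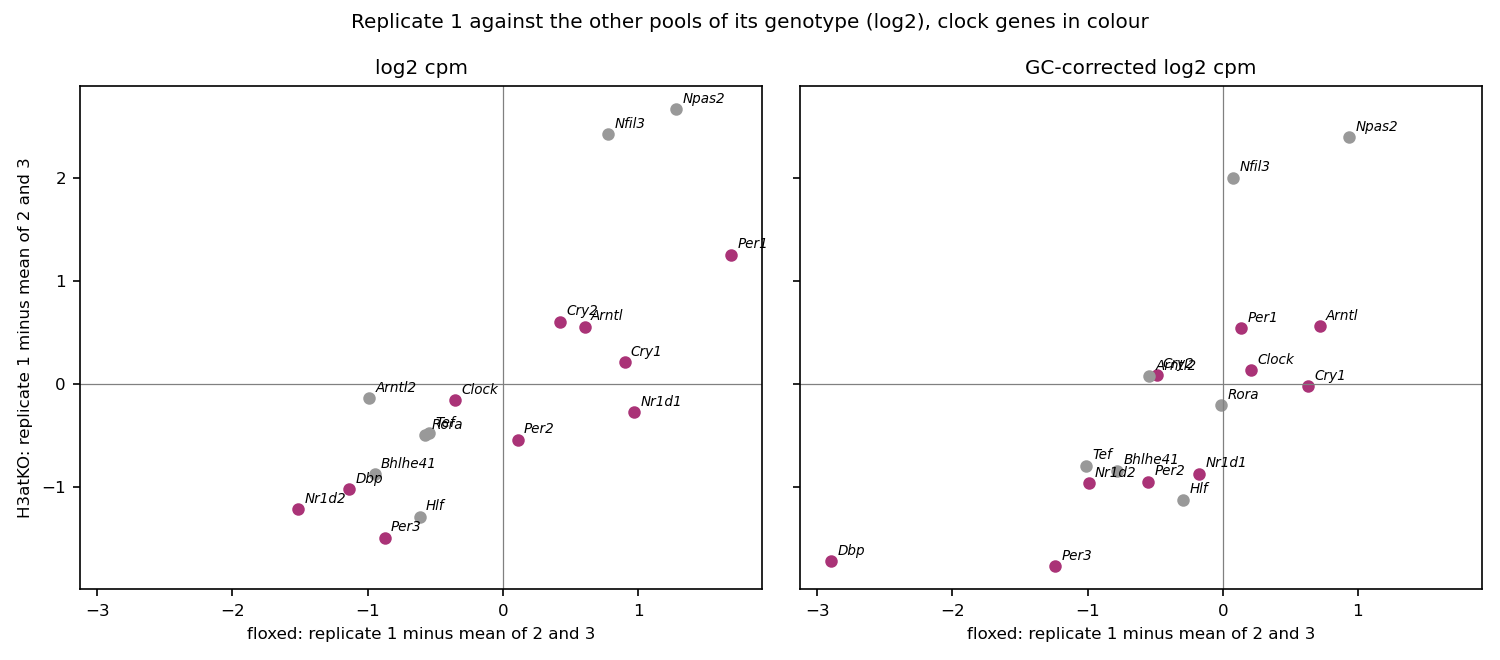
Replicate 1 minus the mean of replicates 2 and 3 of the same genotype (log2), with floxed on the x axis and H3atKO on the y axis, for the 10 clock genes (coloured) and the 7 further clock transcription factors named in the text (grey), without (left) and with the GC correction (right). *Arntl*, *Per1*, *Npas2* and *Nfil3* lie in the upper right of both panels. *Per3*, *Nr1d2*, *Dbp*, *Rora*, *Tef*, *Hlf* and *Bhlhe41* lie in the lower left of both.

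Of 11 other transcription factors of the clock, 10 passed the filter. limma called 1 higher (*Rora*) and 0 lower, and 0 were lower at an unadjusted p under 0.05 or with edgeR's quasi-likelihood test. This compares with 9.42% and 7.07% of all genes for limma, so that 1 of 10 was at the background. With the replicate block 3 were higher and 1 lower, where 24.8% and 28.7% of all genes were. The median log2 fold change was -0.10. *Rora*, the ROR activator that competes with Rev-erb proteins, was at 60.5, 78.2 and 104 cpm in floxed and at 200, 285 and 281 cpm in H3atKO replicates 1 to 3. The difference was 1.68 ± 0.28 (SE, limma adjusted p = 0.0208), and 0.66 after the GC correction (adjusted p = 0.0775, or 0.0462 with the replicate block as well). *Bhlhe41*, an E-box repressor, had 1.19 (adjusted p = 0.0760 from limma) and 1.01 after the correction, with adjusted p of 0.00546 with the block and 0.0201 with both. *Hlf* had 0.80 (adjusted p = 0.206, 0.0464 with the block), *Tef* -0.40 (adjusted p = 0.323), *Npas2* -1.11 (adjusted p = 0.286) and *Nfil3* -0.53 (adjusted p = 0.562). After the GC correction *Hlf* had 0.29 (limma adjusted p = 0.626, or 0.398 with the block as well) and *Npas2* -0.38 (limma adjusted p = 0.713).

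Among 11 kinases, ubiquitin ligases and related proteins that act on clock proteins, 1 was called higher (*Prkaa2*) and 0 lower by limma, with 2 lower at an unadjusted p under 0.05 and 1 lower with edgeR's quasi-likelihood test. The share higher with limma was 9.09%, against 9.42% of all genes, and edgeR called 18.4% of all genes lower. With the replicate block 3 were higher and 2 lower (27.3% and 18.2%, against 24.8% and 28.7% of all genes). The median was -0.36. *Prkaa2*, a catalytic subunit of the kinase AMPK, which marks CRY1 for degradation, was higher by 1.93 on the log2 scale (standard error 0.46, adjusted p = 0.0365 from limma), and by 0.90 after the GC correction (adjusted p = 0.212). *Csnk1e*, a kinase of PER proteins, was the gene called by edgeR, with -1.67 (adjusted p = 0.0515 from limma) and -0.049 after the correction. *Btrc*, a ligase subunit that acts on PER proteins, had -0.51 (adjusted p = 0.240) and -1.53 after the correction (adjusted p = 0.0731, or 0.0139 with the replicate block as well).

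Of 6 listed subunits of the corepressor that REV-ERB proteins bind, 2 were called higher (*Tbl1xr1* and *Tbl1x*) and 1 lower (the deleted *Hdac3*), with a median of -0.50 (2 and 3 with edgeR's quasi-likelihood test and with the replicate block). Of all genes, limma called 9.42% higher and 7.07% lower, edgeR 12.8% and 18.4%, and limma with the block 24.8% and 28.7%. *Tbl1xr1*, which exchanges corepressors for coactivators, was at 35.7, 36.0 and 58.3 cpm in floxed and at 156, 170 and 254 cpm in H3atKO replicates 1 to 3. The difference was 2.16 ± 0.31 (SE, limma adjusted p = 0.0136), and it remained called after the GC correction at 1.24 (adjusted p = 0.0134). For *Tbl1x* the values were 1.2 (adjusted p = 0.0386) and 0.79 (adjusted p = 0.102, or 0.0391 with the replicate block as well). *Hdac3* had -1.83 (adjusted p = 0.0213) and -2.08 (adjusted p = 0.0185). *Ncor1*, the platform of the complex, had 0.19 (adjusted p = 0.576) and 0.13 (adjusted p = 0.699). *Gps2*, a small subunit of the complex, had -1.19 (adjusted p = 0.0760 from limma) and was called with the replicate block (adjusted p = 0.0102). Its GC-corrected value was 0.49.

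A list of 14 genes known from other tissues as repressed by Rev-erb proteins had 4 called higher (28.6%) and 0 lower by limma, with 1 lower at an unadjusted p under 0.05 and 0 with edgeR's quasi-likelihood test. The share called higher among all genes was the 9.42% given above, and the median of the list was 0.89. With the replicate block 6 were higher and 1 lower (42.9% and 7.14%, against 24.8% and 28.7% of all genes), and 5 and 0 once GC content was corrected as well (35.7% and 0%, against 12.9% and 9.84%). Leaving out 1 pool at a time gave 0 to 5 higher. It was 0 without floxed replicate 2 (4 higher and 1 lower at an unadjusted p under 0.05 with limma), where 1 of all 14860 genes was called higher. It was 5 without floxed replicate 3, where 2729 of all 14759 genes were called higher. The median of the list was 0.40 without H3atKO replicate 1. The list holds *Arntl*, *Clock* and *Cry1*. Besides *Clock*, the called genes were *Elovl3*, a fatty acid elongase induced in browning, *Lpl*, the lipase that takes fatty acids from lipoproteins, and *Insig2*, a brake on sterol synthesis. *Elovl3* was at 4.21, 0.216 and 0.971 cpm in floxed and at 721, 283 and 172 cpm in H3atKO replicates 1 to 3, a difference of 8.35 ± 1.05 on the log2 scale (SE, limma adjusted p = 0.0106). *Lpl* was between 7829 and 10428 cpm in floxed and between 21044 and 50691 cpm in H3atKO samples, a log2 fold change of 2.02 ± 0.39 (SE, limma adjusted p = 0.0253). *Insig2* was at 62.6, 68.2 and 68.6 cpm in floxed and at 513, 186 and 151 cpm in H3atKO replicates 1 to 3 (1.87, adjusted p = 0.0367). After the GC correction *Lpl* had 1.29 (adjusted p = 0.0543) and *Insig2* 1.46 (adjusted p = 0.0982), while *Elovl3* (8.43, adjusted p = 0.0129) and *Cry1* were called, 14.3% of the list against 5.41% of all genes. On the corrected scale 13 of the 14 values were positive, with a median of 0.59, against 7597 of 14922 and 0.02 over all genes. Without the correction 9 of 14 were positive, and with library sizes alone 7 of 14, with a median of 0.018 against -0.94 over all genes. *Ucp1*, the uncoupling protein that REV-ERBα is known to repress in brown fat, had 2.33 (adjusted p = 0.353 from limma, 0.00536 with the replicate block). *Ucp1* was at 12.6, 0.577 and 3.33 cpm in floxed and at 158, 1.32 and 11.5 cpm in H3atKO replicates 1 to 3, with overlap. Its GC-corrected value was 2.07 ± 1.95 (SE, limma adjusted p = 0.497), or 2.60 with the block as well (adjusted p = 0.0177).

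The calls of *Rora*, *Prkaa2*, *Hdac3*, *Tbl1x* and *Insig2* held without floxed replicate 3 and were lost without any other single pool, with limma adjusted p between 0.0512 and 0.129. *Lpl* also held without H3atKO replicate 1. *Tbl1xr1* was lost without floxed replicate 2 (adjusted p = 0.0776) and without H3atKO replicate 3 (adjusted p = 0.0549), and *Elovl3* without floxed replicate 2 (adjusted p = 0.0516). *Per1*, *Nr1d1* and *Nr1d2* were called when floxed replicate 3 was left out.

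Markers of other cells of the depot differed between pools in the same libraries. The 5 preadipocyte markers (such as *Pdgfra*) summed to between 306 and 1058 cpm in floxed and between 134 and 280 cpm in H3atKO samples, and the 4 endothelial markers (such as *Pecam1*) to between 544 and 864 and between 371 and 502 cpm. The 7 brown adipocyte markers summed to between 38.7 and 90.1 cpm in floxed and between 134 and 435 cpm in H3atKO samples. These 3 sums did not overlap between the genotypes, as was so for 51.8% of all genes. The log2 fold change was negative for 5 of 5 preadipocyte and 3 of 4 endothelial markers (not *Kdr*, 0.30), against 7855 of 14967 genes. It was positive for 5 of the 6 brown markers tested (not *Cox7a1*, -0.28). In this order the medians were -2.3, -1.1 and 1.5, or -1.0, -0.90 and 2.1 after the GC correction. Of the tested markers in these 3 lists, *Pdgfra*, *Dpp4*, *Kdr*, *Ucp1*, *Cox7a1* and *Cox8b* overlapped between the genotypes. By limma, 2 preadipocyte and 2 endothelial markers were called lower, against 7.07% of all genes. It called 1 brown marker higher, against 9.42%. The 7 skeletal muscle markers ranged from 616 to 2496 and from 2.53 to 3263 cpm, the 5 macrophage markers from 358 to 2057 and from 327 to 580 cpm, and the 7 mammary epithelium markers from 0.480 to 2.90 and from 0 to 4.55 cpm. The part of these cells in the clock gene values was not tested.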

How the data were processed

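RNA of IngWAT was measured in 3 pools of 500 ng per genotype. The authors made stranded poly(A) libraries, trimmed reads with Cutadapt 1.3, aligned them to GRCm38 with STAR 2.4.2a and deposited htseq-count (HTSeq 0.6.1) read counts per gene, not normalized. The 5 tally lines of each file, holding reads given to no gene, were left out. Multiply aligned reads took 28.3% to 35.2% of counted and tallied alignments in floxed and 43.8% to 45.5% in H3atKO samples, and mitochondrial genes 6.92% to 12.9% and 26.9% to 35.3% of gene counts. Replicate pools are separate samples in the labels, and p-values measure only their spread.

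Symbols, exon lengths and GC content of the longest transcript came from GENCODE M21 (GRCm38), which matched 46005 of 46517 identifiers. The filter (1 cpm or more in any 1 sample), TMM scaling (edgeR 4.0.16) and limma 3.58.1 voom, run in R 4.3.3, followed the paper's methods. A call needed an adjusted p (Benjamini-Hochberg, over all genes tested) under 0.05. DESeq2 1.42.0 and edgeR's quasi-likelihood test were alternatives. The GC correction subtracted a robust loess curve (span 0.3) from each sample's voom values. Genotype effects that follow GC content are removed with it. Simulated counts served to test the fits. They held no trend over GC content and no effect of replicate number, so they cannot show how the correction or the block handle these. Depth intervals cover counting error only.

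The members, lists and alternatives were chosen with earlier results of these data known. All 10 members are named, and from each list the called genes first. Some listed genes are counted but not reported by name here.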

Additional observations from a re-analysis of the deposited data

How the results depend on the processing

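The clock genes called higher and lower, 1 and 1 with limma voom among 2468 called genes, changed with most settings. They were 1 and 3 among 4665 with edgeR's quasi-likelihood test, 2 and 3 among 6400 with DESeq2, 0 and 5 among 5973 with library sizes alone, 1 and 2 with a minimum of 10 counts per sample, 3 and 4 among 8443 with sample quality weights, 3 and 4 among 8007 with the replicate block, 1 and 0 among 1277 with the GC correction, and 3 and 1 with the block and the correction together. With the correction on library sizes alone, chosen after seeing the data, they were 1 and 0 among 1288. RLE factors, no low-count filter and leaving out the mitochondrial genes each gave 1 and 1. Without 1 replicate in turn they ranged from 0 to 2 and from 0 to 3 among 1 to 6557 called genes, with both counts at 0 in 5 of the 6 fits, where 3 to 5 clock genes had an unadjusted p under 0.05, and at 2 and 3 without floxed replicate 3. Fewer samples entered these fits.

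Directions also turned. With library sizes alone, where the median over all genes was -0.94, *Arntl* was at -0.72, *Cry1* at -0.058 and *Ncor1* at -0.67 (-0.11 with quality weights). *Arntl* was at -0.047 without floxed replicate 2 and -0.062 without H3atKO replicate 1. *Nfil3* ranged from -1.41 to 0.12 when 1 replicate was left out, positive without H3atKO replicate 3. With the GC correction, the block and the correction, and the correction on library sizes alone, in this order, *Dbp* was at 1.92, 1.89 and 1.98, *Per2* at 0.84, 0.85 and 0.87, *Gps2* at 0.49, 0.49 and 0.49, *Nfil3* at 0.63, 0.91 and 0.58, and *Tef* at 0.49, 0.51 and 0.51. The median turned to 0.059, 0.048 and 0.049 for the 10 clock genes, 0.31, 0.31 and 0.31 for the corepressor and 0.34, 0.39 and 0.38 for the other transcription factors. The latter was also 0.018 with DESeq2, 0.19 with quality weights, and from -0.23 to 0.35 without 1 replicate, positive without floxed replicate 3 (0.35) and H3atKO replicate 3 (0.098), and that of the kinases and ligases was 0.0205 with the block and the correction. The log2 ratio of *Arntl* to *Dbp* turned to -1.89 with the correction. The cause was not tested.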
